A study of Mus musculus with 27 samples.

Results

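The expression table of this study holds 59489 gene models, and 35968 of them on the nuclear chromosomes carry a position on the mouse genome build mm10 but no gene symbol. This report describes the 2452 of those 35968 unnamed models (6.82%) whose FPKM (fragments per kilobase of model, scaled to library depth) was at least 1 in at least 3 of the 27 libraries. The FPKM values of all 27 libraries therefore chose the models, and their levels are given as a description. Of the 2452 models, 1041 reached 1 FPKM in every library, and 9835 of the 35968 unnamed models were listed at 0 in every library. For comparison, 12176 models with a symbol met the same level. By the third of their values, counted from the highest, GSMG0037367 and GSMG0053509 lay just inside at 1.00 FPKM each, and GSMG0032903 and GSMG0070517 just outside at 0.999 FPKM each.

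The libraries were made from polyadenylated RNA of wild-type mouse brain, as primary cortical cells taken at embryonic day 16.5 and kept in culture for 14 days, and the series compares intron retention after bicuculline or BDNF. All groups received an inhibitor of transcription. In the first experiment the cells were held for 2 h in 50 µM DRB, which blocks the release of RNA polymerase II into elongation, and were unstimulated, given 20 µM bicuculline for 1 h, or given 50 ng/mL BDNF for 1 h. Bicuculline blocks GABA-A receptors and so raises network activity, and BDNF is a neurotrophin that acts through the receptor TrkB. In the second, the cells were held for 3 h in 1 µM triptolide, which blocks initiation, and whole cells, nuclei and cytosol were each sampled unstimulated and after 20 µM bicuculline for 1 h. Each of the 9 groups had 3 libraries, numbered 1 to 3 in the labels, and values below are given in that order. Within an experiment, libraries of the same number also share a code in their descriptions, and they are called a replicate set below, although the labels do not say what the code marks. The codes of the 2 experiments were different, and no library without an inhibitor was analysed here.

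A model without a symbol can be many things. Retained introns and stretches beyond the annotated end of a gene are parts of longer transcripts, and RNAs that keep an intron are known to be held in the nucleus of neurons until a signal releases or degrades them. Processed pseudogenes are copies of messenger RNAs that were written back into the genome, so a read from the parent messenger RNA can match the copy as well as its source. The immediate-early transcription factors Jun and Junb are encoded by genes without introns, and their RNAs rise within minutes of neuronal activity.

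The results turn on 3 kinds of sequence. The first are short models inside processed pseudogenes, shown with 12 bases of the pseudogene on each side and with capitals where a base differs from the parent messenger RNA. They are taken from GENCODE M21 transcripts (mm10), 5′ to 3′ on the strand of the pseudogene, and the coordinates are those of the model alone. They are GSMG0069873 in Rpl9-ps4 (chr13:72454817-72454862, minus strand, parent Rpl9), GSMG0070470 in Pgk1-rs7 (chr12:10899762-10899908, minus strand, parent Pgk1), GSMG0043409 in Gm6311 (chr13:75954337-75954497, plus strand, parent Rps2), and GSMG0059306 in Gm8399 (chr13:81065674-81065694, plus strand, parent Actg1).
GSMG0069873: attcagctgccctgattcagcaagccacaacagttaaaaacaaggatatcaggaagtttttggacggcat
GSMG0070470: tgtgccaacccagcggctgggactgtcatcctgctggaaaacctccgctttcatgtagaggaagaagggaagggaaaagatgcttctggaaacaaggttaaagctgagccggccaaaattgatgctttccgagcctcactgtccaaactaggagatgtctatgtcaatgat
GSMG0043409: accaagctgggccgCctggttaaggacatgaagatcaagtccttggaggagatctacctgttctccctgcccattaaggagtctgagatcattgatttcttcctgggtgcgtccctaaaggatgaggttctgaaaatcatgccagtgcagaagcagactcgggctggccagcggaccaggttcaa
GSMG0059306: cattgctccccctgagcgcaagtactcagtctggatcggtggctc
Inside the model itself, GSMG0043409 differed from its parent at 1 base and the other 3 at none.

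The second kind are the mature microRNAs inside GSMG0005517 (chr11:75172475-75177633), a model that rose with both stimuli. Its span holds the hairpins of Mir212 (chr11:75173388-75173478, plus strand) and Mir132 (chr11:75173682-75173747, plus strand), and it ends at the same base as the annotated noncoding host transcript 1700016P03Rik (chr11:75172560-75177633, plus strand). The sequences are RefSeq's (GRCm38.p6), with the seed, bases 2 to 8, in capitals.
miR-132-3p: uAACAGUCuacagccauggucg
miR-212-3p: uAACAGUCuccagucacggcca
miR-132-5p: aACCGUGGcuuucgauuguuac
miR-212-5p: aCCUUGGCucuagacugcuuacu
The 3p arms of miR-132 and miR-212 share the seed AACAGUC. This cluster is known in neurons as a target of the activity-driven factor CREB, and polyadenylated libraries measure its precursor transcript and not the mature microRNAs. In all, 7 of the 2452 models hold 11 annotated hairpins, among them Mir29b-2 and Mir29c in GSMG0002666 and Mir9-1 in GSMG0024512.

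The third are promoter windows of genes whose unnamed models rose with a stimulus or differed between the experiments. Several motifs were searched on both strands, and TGACNTCA, which includes the CREB element, is reported here. It is held by 2902 of 32851 RefSeq promoters (8.83%), each from 250 bases before to 50 after a start. The CREB element itself, with G in place of N, is held by 588 of the 32851 (1.79%). Of the windows printed below, only that of Irf2bpl holds it, and those of Jun and Homer1 have A there. The remaining motifs searched gave no match in these genes. Homer1 has a second match to TGACNTCA, at chr13:93307849-93307878 (plus strand), which is not printed. Matches are in capitals, and the windows lie at chr4:95052249-95052278 (minus strand, Jun), chr12:86884826-86884855 (minus strand, Irf2bpl) and chr13:93303668-93303697 (plus strand, Homer1) on GRCm38.p6.
Jun: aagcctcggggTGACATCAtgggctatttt
Irf2bpl: gagcatggcggTGACGTCAgcgctccgccc
Homer1: ttccggccgcgTGACATCAtcccccgcaca
The other genes searched were Junb, Jund, Dusp5, Rnf113a2, Bicral, Lcmt2, Elp5 and Ovca2, and no match to these letters was found for any of them in that window.

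Among the libraries, 1419 to 1590 of the unnamed models reached 1 FPKM under DRB and 1397 to 2151 under triptolide, and of a library's summed FPKM the models took 6.35% to 6.54% in the DRB experiment and 11.7% to 13.5% in the triptolide one. The table gives no fragment totals. From the steps between low values, 1 FPKM over 101 bases was inferred to be 8.43 to 15 fragments in the DRB libraries and 6.83 to 9.04 in the triptolide libraries, so the shortest models near 1 FPKM rest on few fragments. Low values of models up to 60 bases fell on whole multiples of 1 fragment over 101 bases (tolerance 0.05) in 23.5% to 32.7% of cases, the highest share of the lengths tried, against 6.10% to 13.2% for 5 others, and the length behind an FPKM is not given in the sources used here. The libraries were labelled cortical cells: all 11 neuronal and all 6 astrocyte markers were above 1 FPKM in every library, as were 4 of 5 markers of the oligodendrocyte lineage, while of 5 microglial and of 5 vascular markers 2 each, and of 2 erythroid markers 1, were above 1 FPKM in some library and none in every library. Cx3cr1, Csf1r and P2ry12 of microglia and Cldn5, Col1a1 and Col1a2 of vascular cells were below 1 FPKM everywhere. In such bulk samples, fewer cells of a type and less RNA per cell cannot be told apart. Nothing in the table separates the strands, so RNA from a gene and from its antisense partner cannot be told apart either.

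The unnamed models were short. Their spans ran from 20 to 887933 bases with a median of 1034, against a median of 25491.5 bases for the models with a symbol, and 789 of 2452 (32.2%) were 60 bases or shorter, against 8 of 12176 with a symbol. Another 423 were longer than 60 bases but under 1 kb, 1140 spanned 1 to 10 kb and 100 more than 10 kb. Chromosome 2 held the most (184), then chromosomes 8 (167), 6 (160), 1 (158) and 5 (157), with 101 on X and 1 on Y. As a share of all models at 1 FPKM on a chromosome they made up between 12.5% (chromosomes 15 and 17) and 22.8% (chromosome 18).

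Placed on GENCODE M21, the models fell into 5 main classes. A model that overlapped several kinds of exon was counted once, under the kind with the most overlapping bases. An exon of a protein-coding gene was overlapped by 766 models (31.2%), and of these 468 lay in a 3′ UTR, 49 in a 5′ UTR, 147 in coding sequence and 102 in other exons. A pseudogene exon was overlapped by 510 (20.8%), nearly all processed pseudogenes (450). Another 347 (14.2%) overlapped an exon of a noncoding RNA gene, most often transcripts of the GENCODE type TEC, whose status is not yet settled (126), or lincRNAs (104). A further 395 (16.1%) lay within a gene but in none of its exons, 433 (17.7%) lay in no annotated gene, and 1 in a small RNA gene. Taken across classes, 413 models lay within an intron of a protein-coding gene and are called intronic below. Of the 433 outside genes, 329 lay downstream of the nearest gene's end, 270 of them within 5000 bases, and 104 upstream of a start, 88 of them within 5000 bases. If an overlap of at least 50% of the span is asked for, the first 4 classes hold 589, 418, 245 and 653 models, and 547 lie in no gene.

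**Figure D1:**
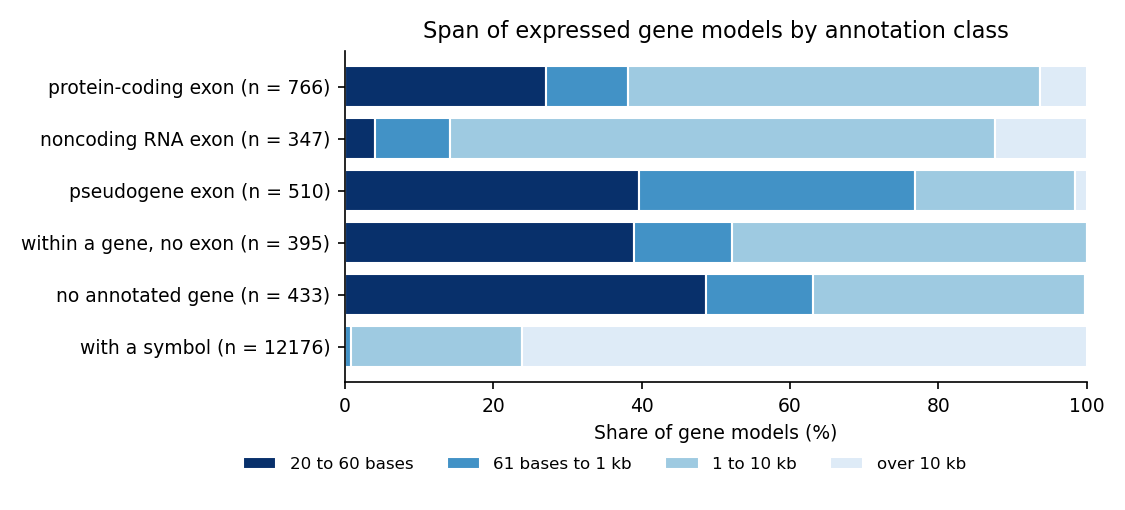
Share of models (%) by span for the 5 classes and for the models with a symbol, with spans of 20 to 60 bases, 61 bases to 1 kb, 1 to 10 kb and over 10 kb in shades from dark to light. Models of 60 bases or less make up 39.6% of the pseudogene class and 48.7% of those in no gene, but 4.03% of the noncoding RNA class and 8 of the 12176 models with a symbol.

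Spans and levels went with class. Median spans were 2507 bases for noncoding RNA exons, 1702 for protein-coding exons, 876 for models within a gene but outside its exons, 154.5 for pseudogenes and 67 for models in no gene. Pseudogene models had the highest median FPKM over the 27 libraries, 6.89, against 2.12 for protein-coding exons, 1.55 in no gene, 1.23 within a gene and 1.2 for noncoding RNA exons. A polyadenylation signal (AATAAA or ATTAAA on the strand of the transcript, in the last 50 bases) was found in 36 of 71 TEC models of at least 50 bases (50.7%) and in 154 of 265 protein-coding ones (58.1%). Among annotated transcripts of protein-coding genes of at least 50 bases, 39509 of 101631 (38.9%) hold it at their end. These were taken by the type of the gene, whatever the type of the transcript. In processed pseudogene models it was found in 1 of 84 (1.19%).

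Most of the pseudogene models that could be aligned were exact copies of a piece of another transcript. Of 253 pseudogene models that lie inside a single exon, 211 (83.4%) were identical over their whole length to a transcript elsewhere. The transcripts searched were those of protein-coding and mitochondrial genes, and the matches came from 116 parent genes. In the other classes, 28 of 582 such models had a full match. The match lay in the parent's coding sequence in 198 of the 211, and its median length was 46 bases and its longest 373. Ap2m1, a subunit of the clathrin adaptor, Pgk1, a glycolytic kinase, and Eif2s3x, a subunit of a translation initiation factor, were each the parent of 7 models, and 22 of the 211 matched ribosomal protein genes. The models do not end where the copies diverge: in 170 of 211 the 12 bases on either side were also identical, as the printed pieces GSMG0069873 and GSMG0059306 show, and 41 had at least 1 difference in a flank. Levels of a piece and its parent often differed. Among 204 pairs, 63 (30.9%) were within 2-fold of the parent's FPKM in unstimulated DRB cultures and 87 (42.6%) in whole cells under triptolide, with Pearson's r of the log2 levels of 0.27 and 0.43 across these pairs, which share libraries and fragments.

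By mean FPKM over the 27 libraries, the 2 most abundant unnamed models were copies of mitochondrial genes on chromosome 1. GSMG0043411 (chr1:24613188-24614814) overlaps Gm28437, which was identical to mt-Co3 over all of its 783 bases, and GSMG0043410 (chr1:24614879-24615568) overlaps Gm28661, identical to mt-Co2 over 681 bases. Both mitochondrial genes encode subunits of cytochrome c oxidase. The next was GSMG0050945 (chr17:39842997-39848829), with 954, 658 and 727 FPKM in unstimulated DRB cultures. It overlaps Gm26917, which GENCODE types as a lincRNA, and what RNA its fragments came from was not tested. The others among the 12 highest included the 21-base Actg1 piece GSMG0059306, a 22-base piece of the ubiquitin gene Ubb in Gm1821 (GSMG0054969), and 2 models of 59 and 84 bases on the X chromosome, 824 and 1184 bases downstream of a small nucleolar RNA gene (GSMG0070362 and GSMG0070363).

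All tests below were made with limma on log2(FPKM + 0.5) over every model of the table that passed the level, with Benjamini-Hochberg adjustment, and a model is called at an adjusted p under 0.05. Unless a block is named, the fit held a mean per group and left out the pairing by replicate set. Fold changes on this scale understate the change of low models.

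Intronic and downstream models were nuclear, and pseudogene pieces were not. In unstimulated cultures under triptolide, nuclei were compared with cytosol over 14205 models, of which 67% were called, 39% higher in the nucleus and 28% lower. Because 353 unnamed models reached 1 FPKM in all 3 libraries of a nuclear group and of no other group, and had to be higher in nuclei, the values given first are those of the 1593 unnamed models that also passed in the DRB libraries, which this comparison did not use. Of these, 781 were called higher in the nucleus and 280 lower, with a median log2 difference of 0.31, against a median of -0.01 for 11304 models with a symbol (3803 higher, 3629 lower). Over all 2356 unnamed models tested the median was 0.60, with 1344 higher and 313 lower. With the replicate set as a block 1405 were higher and 400 lower, where 75.9% of all models were called, 42.8% higher and 33.1% lower. With quantile normalization, which moved the median of all models tested from 0.06 to -0.12, the 1593 had a median of -0.01 and split 576 to 489, and the 2356 split 952 to 606.

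Class by class, and again over the models that passed in the DRB libraries, the median nucleus minus cytosol difference was 1.16 for models within a gene but outside its exons (163 higher and 14 lower of 229). It was 0.69 for models in no gene, 0.45 for noncoding RNA exons, 0.45 for protein-coding exons and -0.20 for pseudogenes. The order of the highest and the lowest class was kept under quantile normalization, at 0.61 and -0.26. Within protein-coding genes, 3′ UTR models had a median of 0.55 and coding models of -0.00. The 224 intronic models had a median of 1.26, with 168 called higher and 15 lower. For scale, a list of 8 noncoding RNAs with a symbol, such as Meg3 and Miat, had a median of 2.81. Of these, Pvt1 was nearly even, with means of 7.39 FPKM in nuclei and 6.31 in cytosol. Peg13 went the other way, at 28.8 and 42.4, and the others were higher in nuclei. The 73 cytosolic ribosomal protein genes had a median of -0.04, which was 0.10 with quantile normalization.

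**Figure D2:**
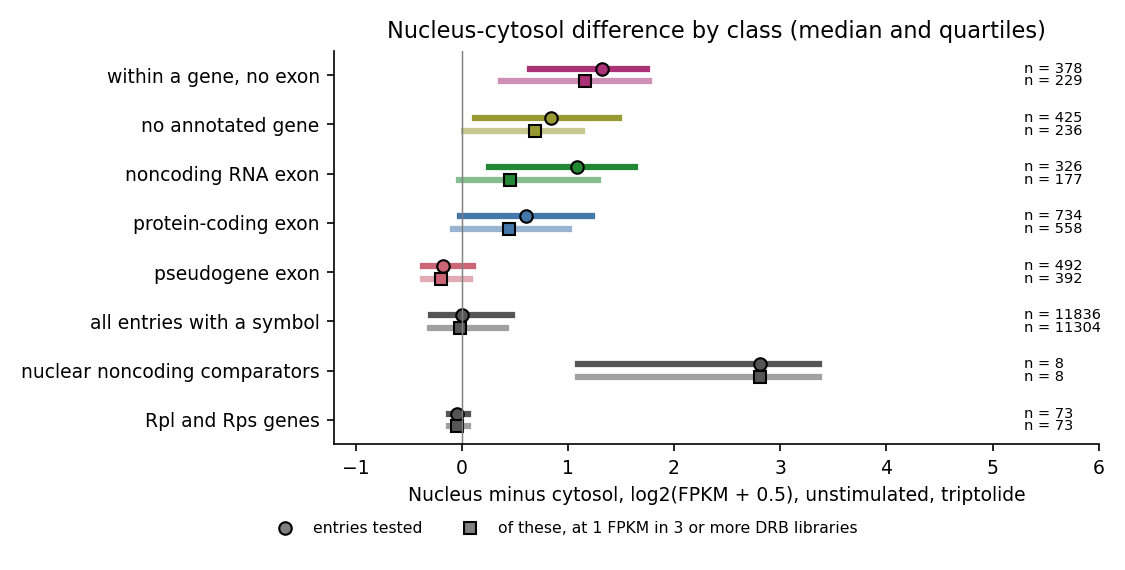
Median (symbol) and quartiles (bar) of the nucleus minus cytosol difference in log2(FPKM + 0.5) by class, in 3 nuclear and 3 cytosolic libraries of unstimulated triptolide cultures. Circles are all models tested and squares those that also passed in the DRB libraries. Models within a gene but in no exon lie highest (1.32 and 1.16) and pseudogene models lowest (-0.18 and -0.20) of the unnamed classes.

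Models differed from the gene they sit in or follow. Over 361 pairs of an intronic model and its host's own entry, the median difference was 1.39 for the intron and 0.13 for the host, and 309 introns lay above their host. For 398 pairs of a 3′ UTR model and its host the medians were 0.69 and 0.09, with 323 above the host. Models downstream of a gene showed 0.88 against 0.17 over 196 pairs, with 168 above. Pseudogene pieces moved with their parents, with -0.23 against -0.18 over 195 pairs. These pairs hold models that passed only through the nuclear libraries, so the counts are a description.

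On the log2(FPKM + 0.5) scale, the largest nuclear excess was in an intron of Ptprs, a receptor tyrosine phosphatase of the axon and synapse. GSMG0017695 (chr17:56430555-56432478) had 33.5, 31.9 and 34.6 FPKM in nuclei and 1.66, 1.47 and 1.67 in cytosol. The lowest nuclear library was thus far above the highest cytosolic one (log2 difference 4.01, SE 0.18, adjusted p = 1.66e-10). Ptprs itself differed by 0.18 (adjusted p = 0.0708). As a plain ratio of FPKM the excess was 20.8-fold, and lower models such as GSMG0006773 below, at 35.6-fold, stood above it. An intronic model of Ddx39b, an RNA helicase of splicing and export, GSMG0016588 (chr17:35250601-35250881), had 104, 89.8 and 106 FPKM in nuclei and 13.2, 9.64 and 12.3 in cytosol, without overlap (log2 difference 3.05, SE 0.15, adjusted p = 2.72e-10), and Ddx39b differed by 0.99. In the endocytic GTPase gene Dnm1, the intronic GSMG0022638 (chr2:32329590-32332613) had 24.3, 21.4 and 26.2 FPKM against 3.34, 2.87 and 3.55 (log2 difference 2.70, SE 0.12, adjusted p = 1.66e-10). Its host went the other way, at -0.39. The Ddx39b and Dnm1 models were chosen after their values were seen.

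A large excess was also seen outside protein-coding genes. GSMG0006772 (chr11:61504386-61505061) over B9d1os had 13.4, 14.0 and 12.9 FPKM in nuclei and 0.542, 0.893 and 0.635 in cytosol. GSMG0006773 (chr11:61514363-61515496), in no gene and 1432 bases from B9d1, had 6.24, 6.09 and 6.46 against 0.230, 0.124 and 0.175. Neither pair of groups overlapped, with log2 differences of 3.56 (SE 0.17) and 3.32 (SE 0.12). For Neat1, the architectural RNA of nuclear paraspeckles, GSMG0065072 (chr19:5842309-5845480) had 6.37, 5.68 and 8.51 FPKM in nuclei and 0.603, 0.504 and 0.525 in cytosol, a log2 difference of 2.80. GSMG0070285 (46 bases, 478 bases from Usp9x on the X chromosome) had 13.9, 16.7 and 14.3 FPKM in nuclei and 0, 3.85 and 0 in cytosol, a log2 difference of 3.91 (SE 0.60) that was second to the Ptprs intron. It did not pass in the DRB libraries and was at 0 in the 3 unstimulated ones.

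Fewer models were cytosolic. In the 3′ UTR of Cntnap2, a neurexin-family adhesion gene, GSMG0031819 had 8.26, 7.21 and 8.32 FPKM in nuclei and 19.6, 18.1 and 21.4 in cytosol. The groups did not overlap (log2 difference -1.26), and Cntnap2 itself differed by -1.14. Maf, a transcription factor gene, had an unnamed model that differed by -0.98. GSMG0068561, 52 bases in an intron of Spidr, was called at -1.62 (SE 0.67, adjusted p = 0.0456) on 3.15, 0 and 3 FPKM against 4.08, 7.43 and 4.66, and lost its call when any of 4 of the 6 libraries was left out.

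Between the experiments, the unnamed models were higher under triptolide while models with a symbol were higher under DRB. The 3 unstimulated DRB libraries and the 3 unstimulated whole-cell triptolide libraries were compared over 13930 models, of which 63.9% were called, 48.4% higher under DRB and 15.5% lower. Inhibitor, its duration and the replicate sets differ together here and cannot be told apart. For models identical to another transcript, a fragment inside the identical stretch can match both. The counting program is not given, so how such fragments were assigned in each experiment is unknown and was not tested. No fraction is named in the titles of the DRB libraries. Of 2037 unnamed models tested, 310 were called higher under DRB and 805 lower, with a median log2 difference of -0.24, whereas the 11880 models with a symbol had a median of 0.33 (6439 higher, 1344 lower). With median-ratio scaling, which moved the median of all models from 0.26 to -0.00, the unnamed models split 115 to 1109 with a median of -0.49 and those with a symbol 3816 to 2881 with a median of 0.06. Many unnamed models passed only through triptolide libraries and had to be lower under DRB. Over the 1676 that passed in the DRB libraries, a choice that favours higher values under DRB, 310 were called higher and 516 lower (median -0.10), against 6439 and 1171 of 11633 with a symbol (median 0.34). Restricting both to models at 1 FPKM in each of the 6 libraries left 1249 unnamed models with 211 higher and 433 lower (median -0.14), and 10538 with a symbol (5894 higher and 1107 lower, median 0.34).

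Over the models that passed in the DRB libraries, each of the 5 classes had a median below the 0.29 of all 13321 models. It was -0.31 for models in no gene, -0.25 within a gene outside exons, -0.05 for noncoding RNA exons, -0.04 for protein-coding exons and 0.01 for pseudogenes. Among those in no gene, the 175 downstream of a gene had a median of -0.38 with 9 higher and 81 lower. Among protein-coding exons, 41 models in 5′ UTRs had a median of 0.29 with 16 higher and 3 lower. Ribosomal protein genes with a symbol had a median of -0.53 (73 genes). Set beside their host, and again over models that passed in the DRB libraries, 3′ UTR models had a median of -0.15 and the hosts of 0.38 over 320 pairs, with 27 models above the host. The same medians were -0.24 and 0.23 for 116 downstream pairs, with 11 above, and -0.18 and 0.19 for 227 intronic pairs, with 46 above.

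**Figure D3:**
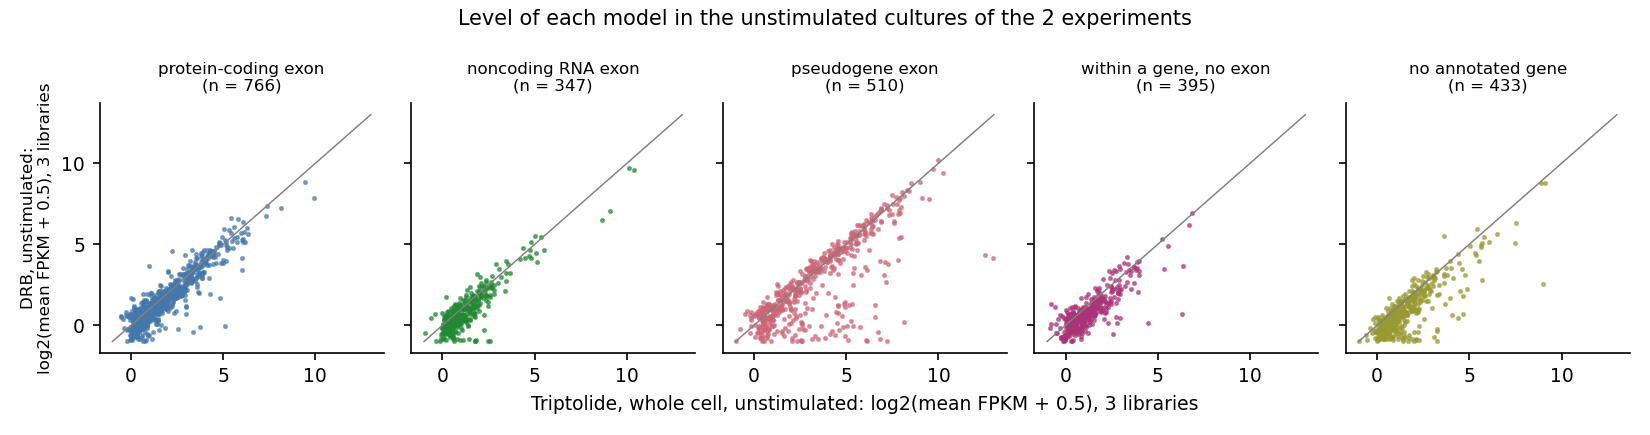
Mean level of each unnamed model in 3 unstimulated DRB libraries (vertical) against 3 unstimulated whole-cell triptolide libraries (horizontal), both as log2(mean FPKM + 0.5), for the 5 classes, with the line of equal levels. The pseudogene panel holds 69 of the 126 models that were lower under DRB by a log2 of at least 2, and they lie far below the line.

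Pseudogene models were the most frequent class among differences of at least 4-fold. By a log2 of at least 2, 126 unnamed models were lower under DRB and 3 higher, and 69 of the 126 were pseudogene models. Of those that passed in the DRB libraries, 51 were lower and 3 higher, with 30 pseudogene models among the 51, against 48 and 41 of the 11633 models with a symbol. GSMG0043411, the copy of mt-Co3, had 14.9, 14.7 and 23.3 FPKM under DRB and 7772, 7113 and 9277 under triptolide. The copy of mt-Co2, GSMG0043410, had 20.9, 17.8 and 20.9 against 5573, 5756 and 6363. In both, the groups are far apart (log2 differences -8.82, SE 0.20, and -8.18, SE 0.15). Together the 2 models made up 0.114% to 0.177% of the summed FPKM of the unnamed models in the DRB libraries and 23.9% to 34.2% in the triptolide libraries. GSMG0070249 over Gm28439, identical to mt-Nd4 over 876 bases, had 1.91, 1.63 and 1.99 FPKM against 95.1, 86.1 and 103. The 13 entries on the mitochondrial chromosome itself, which are outside the set described, varied: GSMG0041515 averaged 2.92 FPKM under DRB and 2281 under triptolide, GSMG0041514 9261 and 17201, and GSMG0041522 196 and 147, all 3 chosen after their values were seen. These entries were not matched to the genes of the copies, so they are not given as the sources of the copies.

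Several copies of nuclear genes were below 1 FPKM under DRB and abundant under triptolide, and the 3 given first passed through the triptolide libraries alone. GSMG0069873, the 46-base Rpl9 piece printed above, had 0.606, 0.754 and 0.660 FPKM under DRB and 291, 284 and 270 under triptolide (log2 difference -7.91, SE 0.08, adjusted p = 1.71e-16). GSMG0070470, the 147-base Pgk1 piece, had values between 0.000648 and 0.0359 FPKM under DRB and 141, 164 and 138 under triptolide (log2 difference -8.17, SE 0.11). GSMG0043409, the Rps2 piece, had at most 0.0264 under DRB and 61.3, 66.5 and 79.1 under triptolide. The parents' own entries were also lower under DRB but far from 0: Rpl9 had 17.6 ± 0.818 FPKM (SD, n = 3) under DRB and 113 ± 4.73 under triptolide, and Pgk1 22.3 ± 1.03 and 101 ± 1.05. Outside annotated genes, GSMG0065121 (chr6:37806702-37807478, 152 bases from Atp6v0c-ps2) had 5.54, 4.93 and 5.79 FPKM against 513, 464 and 541 (log2 difference -6.42, SE 0.10). The sequence of GSMG0065121 was not aligned, so whether it is also a copy was not tested. GSMG0065121 and the Rps2 piece were chosen after their values were seen, as was the Ap2m1 piece below.

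Not every piece followed. The 21-base Actg1 piece GSMG0059306 had 1464, 1059 and 973 FPKM under DRB against 958, 1026 and 997 under triptolide, overlapping groups that were not called. GSMG0067087, a 124-base Ap2m1 piece, had 442, 402 and 458 against 394, 373 and 327 FPKM and was called higher by 0.25 (adjusted p = 0.0331), which became -0.05 with median-ratio scaling. Of 203 pseudogene pieces identical to a parent, 25 were lower under DRB by a log2 of at least 2 (11 of the 179 that passed in the DRB libraries), none was higher by as much, and 165 stayed within 1. Over 196 such pairs the medians of piece and parent were -0.01 and -0.04, with Pearson's r of 0.49.

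Models within several transcription factor genes were higher under DRB. GSMG0028080 (chr4:95050234-95052171), within Jun, had 11.8, 10.7 and 13.5 FPKM under DRB and 1.41, 1.29 and 1.70 under triptolide (log2 difference 2.67, SE 0.13, adjusted p = 1.52e-09). GSMG0009143 (chr12:86881143-86883929), within the transcriptional regulator Irf2bpl, had 26.1, 20.1 and 25 against 4.61, 4.02 and 4.12 (log2 difference 2.34, SE 0.10). Neither pair of groups overlapped. In Pou3f3, a neural transcription factor gene, GSMG0000193 had 20.1, 20.1 and 18.9 against 7.71, 6.80 and 7.07 FPKM (log2 difference 1.40). Models over Junb, Jund and Maf were higher under DRB by 1.69, 1.35 and 0.93, while a second model over Jund, GSMG0038561, differed by -0.11 (adjusted p = 0.437). Sox2 went the other way: GSMG0024209 had 0.487, 0.326 and 0.412 FPKM under DRB and 1.34, 1.24 and 1.47 under triptolide (log2 difference -1.03). Among small nucleolar RNA hosts, the models over Gas5 and Snhg8 were higher under DRB by 1.08 and 0.44, and that over Snhg14 differed by -0.68.

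Of the unnamed models, 2 of 1676 tested rose with bicuculline under DRB and none fell, where 0.308% of all 13321 models were called. Without adjustment, 40 of the 1676 had a p under 0.05 in limma, beside 266 of all 13321 models. With BDNF, 12 rose and none fell, where 0.638% were called. BDNF exceeded bicuculline for 2 models and fell short of it for none, where 0.113% of all models were called higher and 0.015% lower, or 0.128% together. With the replicate set as a block, 8 models were called with bicuculline, where 0.571% of all models were. With BDNF, 30 rose and 1 fell under the block, where 1.46% and 0.0375% were called (1.49% together). BDNF against bicuculline gave 11 under the block, where 0.54% were called. Median responses of the unnamed models were 0.00 to bicuculline and -0.01 to BDNF. The 13 activity genes with a symbol, such as Npas4, Arc and Fos, had medians of 2.26 and 3.18, with 12 of 13 called for each stimulus.

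The largest responses were those of Junb and of the miR-212/132 host. GSMG0038695 (chr8:84972736-84978719), which spans Junb and also overlaps an entry of Prdx2, had 2.37, 3.52 and 2.4 FPKM unstimulated, 19.6, 23.9 and 18.1 with bicuculline and 75.1, 66.2 and 75.5 with BDNF. The 3 groups were fully separate (bicuculline log2 change 2.70, SE 0.15, adjusted p = 9.98e-05, BDNF 4.49, SE 0.15, adjusted p = 2.53e-06), and BDNF exceeded bicuculline by 1.80 (adjusted p = 0.00241). GSMG0005517, whose microRNAs are printed above, had 0.311, 0.453 and 0.482 FPKM unstimulated, 2.33, 3.48 and 4.01 with bicuculline and 6.34, 7.90 and 10.2 with BDNF. Again no group overlapped another (log2 changes 2.02, SE 0.21, adjusted p = 0.00332, and 3.22, SE 0.21, adjusted p = 1.1e-04). It reached 1 FPKM in stimulated DRB libraries only, so a difference was needed for it to be among the models. Its span also covers 3′ UTR sequence of Ovca2 on the opposite strand, and the entry of Ovca2 and Dph1 changed by 0.11 and 0.01, called for neither.

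Under triptolide both models stayed below 1 FPKM in every library and were too low to be tested there. In whole cells Junb's model had 0.582, 0.382 and 0.557 FPKM unstimulated and 0.764, 0.467 and 0.881 with bicuculline, and GSMG0005517 had 0.700, 0.407 and 0.591 against 0.860, 0.508 and 0.698, so both were somewhat higher with bicuculline in each replicate set. The bicuculline response was larger under DRB than under triptolide by 2.45 (SE 0.23, adjusted p = 1.95e-04) for GSMG0038695 and by 1.86 (SE 0.28, adjusted p = 0.0112) for GSMG0005517. These are 2 of 3 unnamed models with such a difference, where 0.136% of 13930 models were called. Without the first or the third unstimulated whole-cell triptolide library the count was 1.

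**Figure D4:**
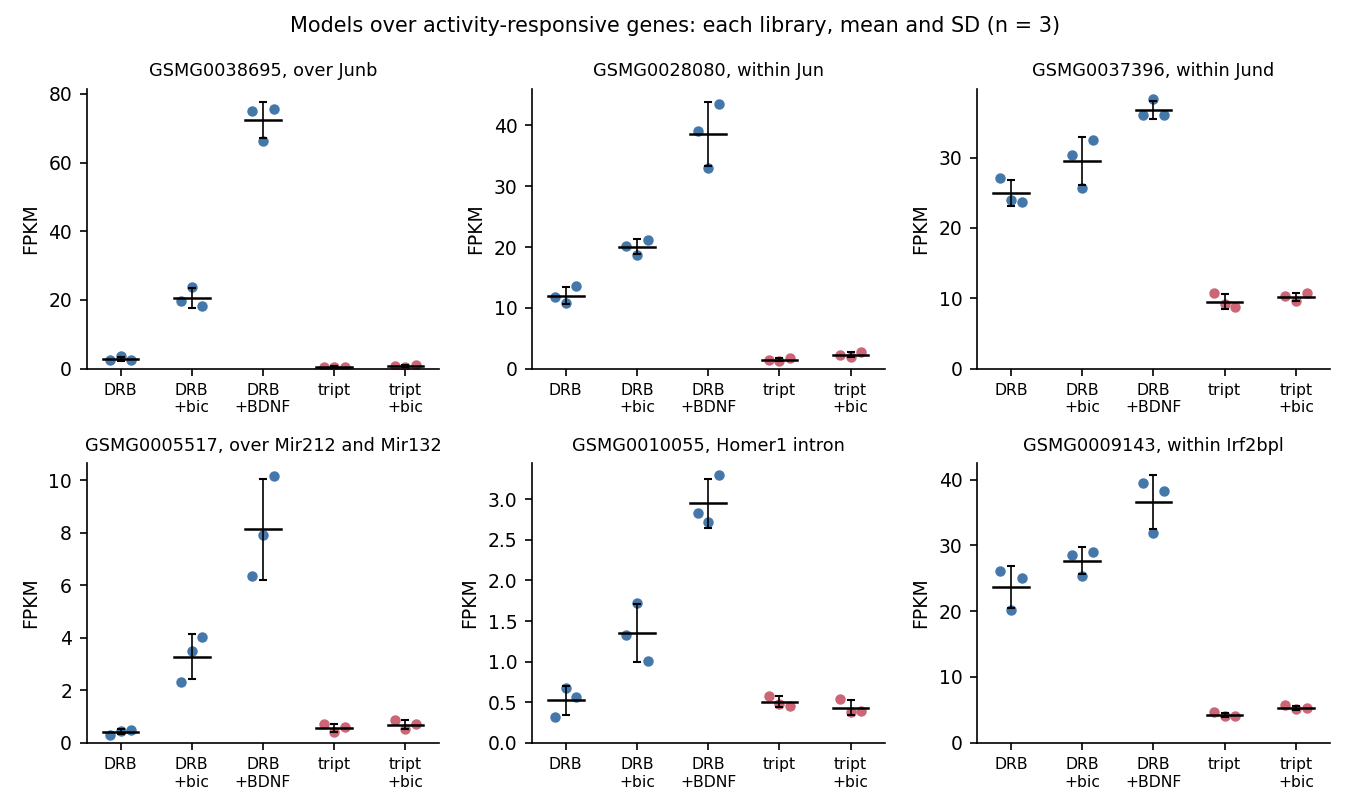
FPKM of 6 unnamed models in each library of the DRB groups (blue) and of whole cells under triptolide (red), with the mean and SD of 3 libraries. Under DRB the Junb model goes from 2.37 to 3.52 unstimulated up to 66.2 to 75.5 with BDNF, and under triptolide it stays below 1 in all 6 libraries.

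Jun itself rose less. GSMG0028080 had 11.8, 10.7 and 13.5 FPKM unstimulated, 20.2, 18.7 and 21.1 with bicuculline and 39.1, 33.1 and 43.6 with BDNF. Every BDNF library was above every bicuculline library and those above the unstimulated ones (BDNF log2 change 1.64, SE 0.12, adjusted p = 1.97e-04). Jund, the third Jun-family gene, had 27.1, 24.0 and 23.7, then 30.3, 25.7 and 32.5, then 36.1, 38.3 and 36.1 FPKM in GSMG0037396 (BDNF log2 change 0.55, SE 0.09, adjusted p = 0.0339), a call lost without any of the 6 libraries. The excess of BDNF over bicuculline for Jun, 0.92 (adjusted p = 0.0222), was lost in 5 of 6 such fits.

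An intronic model of Homer1 was called with BDNF and its host was not. Homer1 encodes a postsynaptic scaffold, and a short form that ends within the gene is known to be induced by activity. GSMG0010055 (chr13:93361103-93362964) had 0.321, 0.678 and 0.564 FPKM unstimulated, 1.33, 1.72 and 1.00 with bicuculline and 2.83, 2.72 and 3.30 with BDNF. No BDNF library overlapped the unstimulated ones (log2 change 1.77, SE 0.18, adjusted p = 0.0022), and the Homer1 entry differed by 0.24, not called. The model was below 1 FPKM in every library except the stimulated DRB ones, so a rise was needed for it to be among the models. A 44-base piece of Gm9176, identical to the clock gene Ciart, had 1.07, 1.29 and 0.934 FPKM unstimulated and 3.54, 3.44 and 3.82 with BDNF (GSMG0067673, log2 change 1.36, SE 0.17, adjusted p = 0.00637), chosen after its values were seen. In the 3′ UTR of Dusp5, a MAP kinase phosphatase gene, a 23-base model rose by 1.45 and Dusp5 itself by 1.46. The other 5 models called with BDNF were 2 in introns of Bicral (1.04 and 1.14), 1 in an intron of Elp5 (1.35), and 1 each over Lcmt2 (0.72) and Rnf113a2 (0.61), also named after their values were seen. Leaving out a library lowered the count of 12 to 6, 7 and 7 without unstimulated library 1, 2 or 3 and to 5, 7 and 4 without BDNF library 1, 2 or 3. Of the 12, 5 also passed the level in the triptolide libraries. Another 5, over the microRNA host and in Homer1, Dusp5, Elp5 and Lcmt2, reached 1 FPKM in fewer than 3 unstimulated libraries, and so passed through the state in which they were high.

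In the nucleus under triptolide, 6 of 2356 unnamed models rose with bicuculline and 32 fell, where 0.986% of all models were called higher and 0.824% lower, or 1.81% together. Of the 32, 9 reached 1 FPKM in fewer than 3 stimulated libraries and so passed through the unstimulated ones, 17 were intronic, 12 overlapped a noncoding RNA exon and 31 were higher in nuclei than in cytosol. Restricted to the 1593 that also passed in the DRB libraries, 6 rose and 14 fell, a share of falls close to that of all models. Of 394 intronic models 1 rose and 17 fell, and of the 224 among them that passed in the DRB libraries 1 rose and 5 fell. Their median changes were -0.13 and -0.09, against -0.01 for models with a symbol. With the replicate set as a block 54 rose and 171 fell, where 7.72% and 5.39% of all models were called.

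Single libraries moved this count. It was 5, 31 and 8 without unstimulated nuclear library 1, 2 or 3, and 8, 101 and 7 without bicuculline nuclear library 1, 2 or 3, against 38. By replicate set, the median change of the 394 intronic models was -0.23 in set 1, 0.05 in set 2 and -0.24 in set 3, with 74.9%, 43.4% and 74.1% of them below 0. The corresponding medians of models with a symbol were 0.01, 0.02 and -0.03.

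The Map7 intron led the falls. Map7 encodes a microtubule-associated protein, and GSMG0002765 (chr10:20264822-20266354) had 2.46, 2.22 and 3.28 FPKM in unstimulated nuclei and 0.310, 0.412 and 0.288 after bicuculline. The groups are far apart (log2 change -1.90, SE 0.14, adjusted p = 6.49e-06), and Map7 differed by -0.17 (adjusted p = 0.372). The model reached 1 FPKM in 5 unstimulated libraries and in no stimulated one, so it passed only through the state in which it was high. In DRB libraries, where it was too low to be tested, it had 0.305, 0.611 and 0.416 FPKM unstimulated and 0.0895, 0.209 and 0.0906 with bicuculline, again without overlap. A model in the 3′ UTR of the RNA-binding protein gene Celf4, GSMG0018786, had 9.41, 8.22 and 10.3 FPKM and after bicuculline 4.47, 4.91 and 4.05 (log2 change -0.98, SE 0.13, adjusted p = 0.00368), while Celf4 changed by 0.05. Models in introns of Srsf11, Nptn, Farp2, Scn8a, Sltm and Ncoa2 fell by 0.86, 0.79, 0.79, 0.72, 0.72 and 0.71 on the log2 scale. These genes include splicing factors (Srsf11), a sodium channel (Scn8a) and a synaptic adhesion protein (Nptn). Also among the falls were models in introns of the splicing regulators Srsf4 (-0.67) and Srrm4 (-0.60) and of Ank2 (-0.62), named after their values were seen. Within these introns, the Srsf11 and Srrm4 models lie wholly in exons of the TEC genes Gm43362 and Gm42853. RNA of the intron and of the TEC gene cannot be told apart there.

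None of the 19 hosts tested beside the 32 falling models was called. For the 17 intronic models the change was below 0 in all 51 pairs of model and replicate set, from -2.26 to -0.24, and below that of the host in all 48 pairs with a host entry. The hosts themselves were below 0 in 27 of the 48. Since the 17 were chosen by this same comparison, these counts describe them. Of the 32 calls, 28 were lost on leaving out at least 1 of the 6 libraries, and the calls of GSMG0002765 and GSMG0018786 were kept each time.

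**Figure D5:**
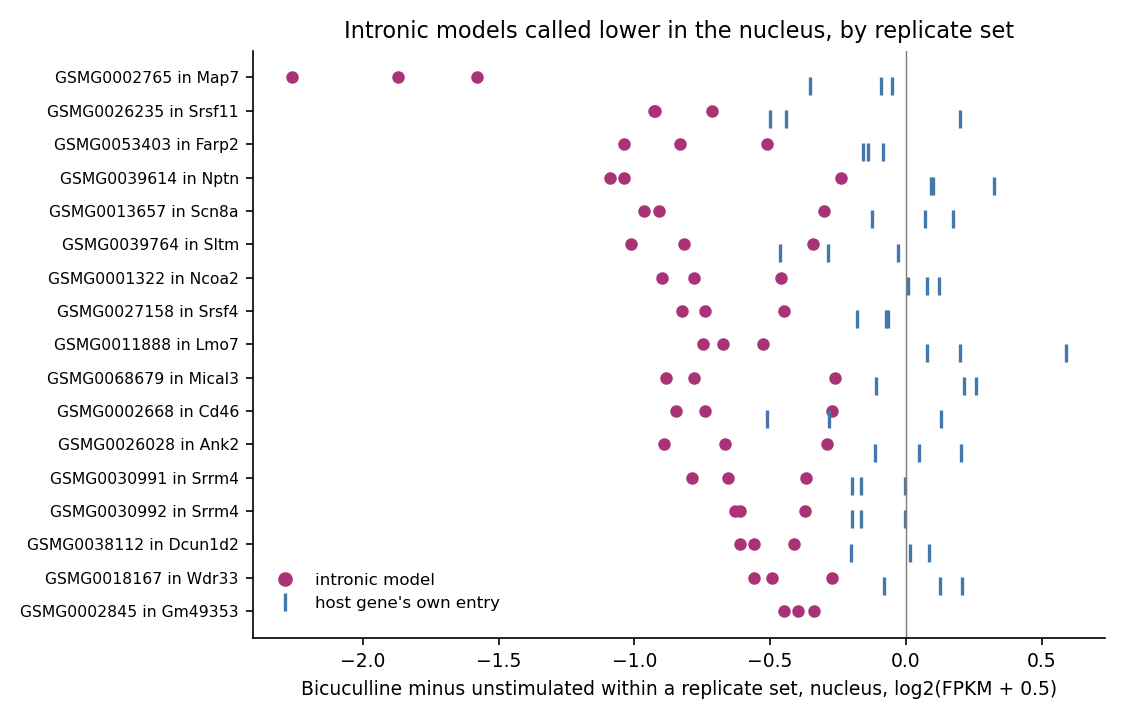
Change with bicuculline in the nucleus, log2(FPKM + 0.5), within each of 3 triptolide replicate sets for the 17 intronic models called lower (circles) and for the entry of the host gene (ticks). All 51 circles lie below 0, between -2.26 and -0.24, and 27 of 48 ticks do.

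The Myt1l intron rose in all 3 fractions. Myt1l encodes a neuronal zinc finger factor, and GSMG0007926 (chr12:29843960-29845875) had 0.680, 0.938 and 1.10 FPKM in unstimulated nuclei and 2.28, 3.53 and 2.94 after bicuculline. All bicuculline libraries lay above all unstimulated ones (log2 change 1.28, SE 0.14, adjusted p = 6.17e-04), and Myt1l differed by 0.36 (adjusted p = 0.0901). The model reached 1 FPKM in 1 unstimulated and 9 stimulated libraries, so it passed through its rise. In whole cells it had 0.445, 0.517 and 0.677 against 1.49, 1.57 and 1.53 FPKM, and in cytosol 0.136, 0.0895 and 0.151 against 0.600, 0.351 and 0.483. Under DRB its 0.501, 0.899 and 0.665 FPKM and 0.741, 1.41 and 0.607 with bicuculline overlapped. The 3′ UTR model of Ndnf, a secreted neuronal factor gene, GSMG0032008, had 2.58, 2.69 and 3.03 FPKM in nuclei and 4.91, 3.68 and 5.35 after bicuculline (log2 change 0.64), and Ndnf rose by 0.78.

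In the cytosol, 6 of 2356 unnamed models rose and 5 fell with bicuculline, where 3.18% and 0.0915% of all models were called, or 3.27% together. The Ptprs intron was among those that rose: GSMG0017695 had 1.66, 1.47 and 1.67 FPKM unstimulated and 4.91, 3.63 and 3.63 after bicuculline. The groups did not overlap (log2 change 1.11, SE 0.18, adjusted p = 0.0112), and Ptprs changed by -0.11. Its nuclear values, 33.5, 31.9 and 34.6 before and 29.9, 45.6 and 28.4 after, overlapped. Models over Uck2 and Ago2, the latter the Argonaute protein of RNA silencing, rose by 0.26 and 0.32, and a 3′ UTR model of the NMDA receptor gene Grin2b changed by -0.38, all named after their values were seen. The count of 11 fell to 1 and 0 without unstimulated cytosolic library 1 or 3 and to 3, 3 and 2 without bicuculline library 1, 2 or 3, stayed at 11 without unstimulated library 2, and was 3 (1 higher, 2 lower) with median-ratio scaling and 0 with quantile normalization. With the replicate set as a block 75 rose and 26 fell, where 14.5% and 0.795% were called.

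In whole cells under triptolide, 1 unnamed model rose (Myt1l) and 3 fell, where 0.0141% and 0.0211% of all models were called, or 0.0352% together. The falls were those of the Map7 and Sltm introns and of the Celf4 3′ UTR model. The Myt1l, Map7 and Sltm models reached 1 FPKM in fewer than 3 libraries of the state in which they were low. They thus passed through the state in which they were high, so their count cannot be set against the share of all models. With the replicate set as a block 10 rose and 48 fell, where 3.72% and 0.514% were called, or 4.23% together. The Myt1l call was lost in whole cells on leaving out any of the 6 libraries, and in cytosol with 5 of the 6, but with none in nuclei. Without unstimulated library 1, 2 or 3 the count of 4 was 5, 2 and 1, and without bicuculline library 1, 2 or 3 it was 2, 2 and 1. The nucleus-cytosol ratio shifted with bicuculline for 11 unnamed models, 1 higher and 10 lower, where 0.0845% and 0.472% of all models were called, or 0.556% together. Their median shift was -0.15, against -0.11 for all models. Of the 10, all were higher in nuclei than in cytosol when unstimulated, and the Map7 intron had the largest shift (-1.26, SE 0.20, adjusted p = 0.0139). With the block, 40 rose and 103 fell, where 2.84% and 6.92% were called, or 9.76% together.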

How the data were processed

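RNA-seq libraries of polyadenylated RNA (9 under DRB, 18 under triptolide) were analysed from a single table of FPKM values for FASTDB gene models on mm10, which the authors deposited. Libraries were made with a stranded mRNA kit per the labels' protocols. STAR 2.4.0, SAMtools, Picard and FastQC appear in the submitters' processing notes. The counting program, its strand setting and the length behind an FPKM were not given in the sources used here. Depth per library is therefore known only as inferred from the steps between low values, and no interval for counting error is given.

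Each library's column was matched to its sample by the name in the sample's description. Values were tested as log2(FPKM + 0.5) with limma 3.58.1 in R 4.3.3 (trended, robust empirical Bayes, Benjamini-Hochberg adjustment), keeping models with at least 1 FPKM in at least 3 libraries of the fit: 13321 models for the DRB fit, 14205 for the triptolide fit and 13930 for the fit of both, which held the 9 DRB and the 6 whole-cell triptolide libraries. There were 10 comparisons, and the fits were tested on simulated data. Same-numbered libraries of an experiment share a code in the labels, which do not say what it marks. Their deviations from the group means correlated with r from 0.463 to 0.902 under DRB and from 0.256 to 0.692 under triptolide. Between different numbers, r ran from -0.62 to 0.15 and from -0.446 to -0.0709. The main fit, which gave the calls, SEs and adjusted p-values, used a mean per group and left this pairing out. Only the alternative fit with this number as a block took the libraries as paired. The fit with this number as a block is printed where it changed a count by more than 1.5 times. Nothing in the labels says whether the replicates came from separate cultures or litters, so p-values measure only the spread between these samples, which may be technical.

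Models were placed on GENCODE M21. A model overlapping several kinds of exon went to the kind with the most overlapping exon bases in a single gene. Ties went to the first of protein-coding exon, noncoding RNA exon, pseudogene exon and small RNA gene. A model overlapping no exon was classed as within a gene or in no gene. Models inside a single exon were aligned to the transcripts with blastn 2.17.0. Models were named where they were among the 12 highest by mean FPKM, among the 4 largest changes in each direction of a comparison with a mean of at least 2 FPKM in a compared group and groups that do not overlap, over a listed gene, or nearest the level, and others are said to be chosen after their values were seen. The models, gene lists and tests were chosen with earlier results of these data known.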

Additional observations from a re-analysis of the deposited data

Results flagged for a closer look

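For 11 unnamed models the response to bicuculline differed between nucleus and cytosol under triptolide, by an interaction term in limma with Benjamini-Hochberg adjustment. GSMG0002765, the Map7 intron, had the largest difference, -1.26 (SE 0.20, adjusted p = 0.0139). Next were 2 short models in Mfsd4a, GSMG0053426 of 24 bases at -1.07 (SE 0.21, adjusted p = 0.0293) and GSMG0053420 of 28 bases at -0.89 (SE 0.19, adjusted p = 0.0429). A pair of models beyond the end of Otud3, 1689 and 3244 bases away, gave -0.86 for GSMG0057222 and -0.66 for GSMG0028552. GSMG0035635 in the 3′ UTR of Pou2f2, a POU-domain transcription factor gene, and GSMG0065271 over the pseudogene Gm28883 both differed by -0.78. The remaining falls were -0.73 for GSMG0046033 in the 3′ UTR of Gtpbp8, -0.70 for GSMG0043045 over C78859 and -0.68 for GSMG0043405 over the pseudogene Gm13841. GSMG0032008 in the 3′ UTR of Ndnf went the other way, at 0.99 (SE 0.17, adjusted p = 0.02), and Ndnf itself differed by 0.86. All 11 were lost on leaving out at least 1 of the 12 libraries.

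For 3 models the response to bicuculline differed between DRB and whole cells under triptolide. It was larger under DRB by 2.45 for GSMG0038695 over Junb and by 1.86 for GSMG0005517, the span of Mir212 and Mir132. The third was GSMG0070553 (chr10:52214021-52214063, 43 bases, in no gene), at 3.23 (SE 0.21, adjusted p = 1.17e-05). It had 3.39, 4.85 and 3.26 FPKM in unstimulated whole cells under triptolide and 0, 0 and 0 after bicuculline. No DRB library reached 1 FPKM. In the fit of both experiments GSMG0070553 thus passed only through those 3 unstimulated triptolide libraries, the state in which it was high. In nuclei it was at 0 in the 3 unstimulated libraries and at 4.27, 4.79 and 1.24 after bicuculline, the opposite direction, and in cytosol at 3.51, 0 and 0 and then 0, 0 and 2.21.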

How the results depend on the processing

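With the replicate number as a replicate block, the counts of unnamed models called were 8 for bicuculline under DRB, 31 for BDNF, 11 for BDNF against bicuculline, 58, 225 and 101 for bicuculline under triptolide in whole cells, nuclei and cytosol, 143 for the shift of the nucleus-cytosol ratio and 7 for the response under DRB against triptolide, and no named call was lost. No block could be fitted between unstimulated DRB and triptolide, whose codes differ. Leaving out 1 library at a time gave 4 to 7 models for BDNF, 1 to 4 for BDNF against bicuculline, 1 to 5 in whole cells under triptolide, 5 to 101 in nuclei, 0 to 11 in cytosol, 0 to 53 for the shift and 1 to 4 for the response difference. Without a filter on low values the counts were 1 for BDNF against bicuculline, 2 in whole cells, 1 in cytosol and 1 for the shift. With quantile normalization they were 1 for BDNF against bicuculline, 97 in nuclei, 0 in cytosol and 5 for the shift. Limma without trend gave 5 for BDNF against bicuculline and 7 in whole cells. In cytosol a pseudocount of 0.1 gave 25, of 1 gave 6, and median-ratio scaling gave 3. Counting only models that passed in the other experiment, an alternative chosen after seeing the data, gave 0 for bicuculline under DRB, 5 for BDNF, 1 for BDNF against bicuculline, 2 in whole cells, 20 in nuclei and 1061 for nucleus against cytosol. Counting only those passing in the DRB libraries, likewise added, gave 826 between DRB and triptolide, against 1115. A level of 2 FPKM left 1633 models. The median nucleus-cytosol difference over all 2452 models, 0.57, was 0.69 and 0.47 with pseudocounts of 0.1 and 1, 0.51 with median-ratio scaling, 0.16 with quantile normalization over the models tested, 0.44 at 2 FPKM and 0.29 for those passing under DRB. Of 156 single-model calls, 27 were lost with no filter, 24 with quantile normalization, 12 with median-ratio scaling and none at 2 FPKM. Reversed were GSMG0029378 within Utp3 (nucleus-cytosol -0.18 with quantile normalization), GSMG0070249 (the same, 0.038) and GSMG0067087 (DRB against triptolide, -0.046 with median-ratio scaling). The cause was not tested.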

Other observations

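Of a chosen list of 38 genes (among them noncoding RNAs and Jun-, Sox- and Pou3f-family genes), 10 had at least 1 unnamed model at the level, 12 models in all. Beside those described above, GSMG0065070 (chr19:5801982-5835942), a longer span over Neat1, had 7.96 ± 0.548 FPKM (SD, n = 3) in unstimulated nuclei and 2.12 ± 0.104 in cytosol under triptolide. GSMG0036015 (chr7:59928979-59930456), inside the long noncoding host transcript Snhg14 of the imprinted Snrpn region, had 15.6 ± 2.9 and 6.36 ± 1.09 FPKM. A 67-base model over the snoRNA host Gas5, GSMG0043924, had 0.705 ± 0.146 in nuclei and 0.0651 ± 0.0595 in cytosol, and 1.11 ± 0.223 under DRB. Of the transcription factor genes, the Sox4 model GSMG0054663 (chr13:28951874-28953697) had 1.05 ± 0.3 and 1.09 ± 0.124 FPKM in nuclei and cytosol and 1.78 ± 0.309 under DRB, and a second model across Jund, GSMG0038561, had 2.84 ± 0.248, 1.19 ± 0.185 and 1.77 ± 0.259.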
